A study of Mus musculus with 16 samples.

Results

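The genes described here are 6 of the 21959 listed in the count tables: Tlx1, Nkx2-5, Nkx2-3 and Nr5a1, which encode transcription factors of the developing spleen, and Coch and Madcam1, which encode a matrix protein and an adhesion molecule of splenic stroma and vessels. They were selected on their counts in these same mice together with their known place in the spleen, so their levels are given as a description and no test was run on them. Tumor RNA labelled as liver metastases was sequenced from 16 male wild-type C57BL/6 mice, each injected at 6 weeks of age with MC38 cells, a mouse colon adenocarcinoma line, in 40 μL of PBS into the lower part of the spleen. The 4 control mice received PBS. The 4 SB525334 mice received an inhibitor of the TGF-β type I receptor (ALK5) by gavage each day at 20 mg/kg, the 4 KN046 mice received an antibody against PD-L1 and CTLA-4 into the peritoneum at 10 mg/kg, and the 4 combination mice received both agents. All groups share the strain, the sex, the cell line and the route, and the spleen itself was not sampled under a label of its own.

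The spleen forms from mesenchyme, and a small set of homeodomain proteins and nuclear receptors is known for setting up that tissue. Tlx1 and Nkx2-5 mark and maintain the spleen primordium, Nkx2-3 is needed for the splenic vessels and for their MAdCAM-1, and Nr5a1 (steroidogenic factor 1) is needed for the splenic vascular bed as well as for the adrenal gland and gonads. In the adult, stromal and endothelial cells of the spleen keep some of these factors, whereas hepatocytes are not known for them.

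Tlx1 (ENSMUSG00000025215) lies on chr19:45139099-45145382 of GRCm39 on the plus strand with 3 exons in its canonical transcript. Nkx2-5 (ENSMUSG00000015579) lies on chr17:27057638-27063983 on the minus strand with 2 exons. Nkx2-3 (ENSMUSG00000044220) lies on chr19:43600764-43604331 on the plus strand with 2 exons. Nr5a1 (ENSMUSG00000026751) lies on chr2:38581468-38604642 on the minus strand with 7 exons. Coch (ENSMUSG00000020953) lies on chr12:51639894-51653316 on the plus strand with 11 exons, and Madcam1 (ENSMUSG00000020310) lies on chr10:79500209-79504371 on the plus strand with 5 exons. GENCODE places an overlapping gene on the opposite strand at each of them except Madcam1, and at Nkx2-5 a further gene on its own strand. None of these overlapping genes is in the count table, and the strand setting of the counting is not stated, so reads of a gene and of its overlapping partner cannot be told apart.

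The 250 bases before each gene's canonical start are of interest because the genes encoding the factors were high in the same mice. Each promoter was searched on both strands for 4 short patterns: TNAAGTG, the NK2 homeodomain pattern bound by Nkx2-5 and Nkx2-3, AAGGTCA, the pattern of Nr5a1, TGATTNAT, a Pbx-Hox pattern, and an NF-kB type pattern of 10 letters, given here by name only. Among 21770 promoters of the same length these were present in 10.1%, 3.93%, 2.55% and 1.53%. The sequences of 4 promoters are shown, for the pair of genes on chromosome 19 and for the genes with a match. Capitals mark the match, which is on the strand opposite to the gene in both cases.
Tlx1 (chr19:45138849-45139098, plus strand): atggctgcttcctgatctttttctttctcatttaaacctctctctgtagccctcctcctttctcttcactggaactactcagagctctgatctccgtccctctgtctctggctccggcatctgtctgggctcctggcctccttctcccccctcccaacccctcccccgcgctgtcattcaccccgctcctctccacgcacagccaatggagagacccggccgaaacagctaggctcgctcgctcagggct
Nkx2-3 (chr19:43600514-43600763, plus strand): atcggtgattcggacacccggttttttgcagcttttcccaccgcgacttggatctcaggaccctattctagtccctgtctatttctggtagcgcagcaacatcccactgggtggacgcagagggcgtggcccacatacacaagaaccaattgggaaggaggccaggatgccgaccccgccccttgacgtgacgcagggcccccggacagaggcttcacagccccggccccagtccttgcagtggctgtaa
Nr5a1 (chr2:38604643-38604892, minus strand): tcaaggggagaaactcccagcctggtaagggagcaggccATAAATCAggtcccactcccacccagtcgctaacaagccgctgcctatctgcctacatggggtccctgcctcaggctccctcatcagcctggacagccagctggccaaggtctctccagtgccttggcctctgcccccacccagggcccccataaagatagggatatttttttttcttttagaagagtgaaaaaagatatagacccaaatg
Madcam1 (chr10:79499959-79500208, plus strand): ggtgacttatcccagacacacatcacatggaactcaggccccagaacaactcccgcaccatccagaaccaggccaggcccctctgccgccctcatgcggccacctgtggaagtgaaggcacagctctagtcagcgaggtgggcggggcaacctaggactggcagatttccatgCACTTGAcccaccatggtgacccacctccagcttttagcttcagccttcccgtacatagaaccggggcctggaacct
The Nr5a1 promoter held the Pbx-Hox pattern 211 to 204 bases before the start, and the Madcam1 promoter held the NK2 pattern 77 to 71 bases before the start. The promoters of Tlx1, Nkx2-5, Nkx2-3 and Coch held none of the 4 patterns in this window. These are matches of letters, and the binding of any factor was not measured.

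Total counts per mouse were 18368994 to 23877131. CPM values are counts brought to a common library size with TMM factors, and n is 4 mice in every group. Libraries stood apart in a pair of ways that touch the results. The 4 combination libraries, labelled liver metastases like the rest, were nearly without hepatocyte RNA: 14 hepatocyte genes summed to 14.1 to 23.7 CPM, against 15625 to 18307 CPM in the control mice, 9488 to 19887 CPM in the KN046 mice and 421 to 2009 CPM in the SB525334 mice. Control mice 1 and 2, and likewise 3 and 4, were unusually alike (median chi-square per gene 1.26 and 0.957, against 2.82 or more in the other 22 within-group pairs), so the control group may hold less independent spread than 4 mice. In RNA of whole tissue, fewer cells of a type and less RNA per cell cannot be told apart.

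The 4 transcription factor genes were high in every combination mouse and at or near 0 elsewhere. Their summed level was 5.24 to 8.53 CPM in the combination mice, and at most 0.525 CPM in any of the other 12 mice. Of all counts of a gene over the 16 mice, the combination mice held 92.9% for Tlx1, 94.3% for Nkx2-5, 96.0% for Nkx2-3 and 97.4% for Nr5a1. The share was 93.9% for Coch and 72.5% for Madcam1. For 5 of the 6 genes, all but Madcam1, every combination mouse was above every other mouse. Among the 13968 genes tested, 0.430% had that order, and since the genes were chosen with this contrast in view nothing is read from the count.

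**Figure D1:**
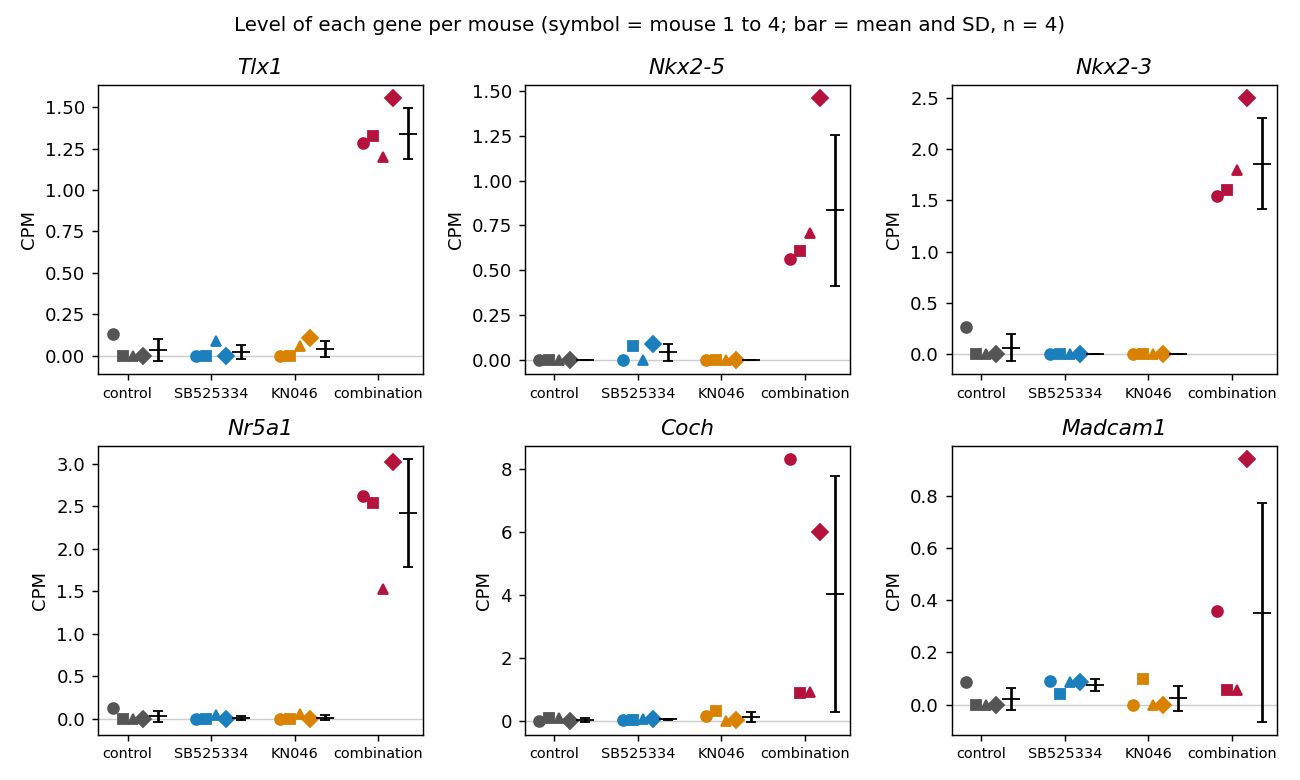
Level of each of the 6 genes (y axis, CPM, linear) in the 16 mice by treatment group (x axis), with a symbol for each mouse and the group mean and SD (n = 4) beside it. The 4 combination mice sit above all other mice in the panels of Tlx1, Nkx2-5, Nkx2-3, Nr5a1 and Coch, whereas in the Madcam1 panel combination mice 2 and 3, at 0.0552 and 0.0546 CPM, lie among the other groups.

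Tlx1 encodes a homeodomain protein without which the spleen is lost during development. Its raw counts in combination mice 1 to 4 were 25, 24, 22 and 33, a level of 1.34 ± 0.152 CPM (SD, n = 4). The control mice had counts of 3, 0, 0 and 0, the SB525334 mice 0, 0, 2 and 0, and the KN046 mice 0, 0, 1 and 2. The combination mice were close to one another, with 1.30 times between the highest and the lowest, and none of them overlapped with another group. The ratio of combination to control was 37.2 with a 95% exact counting interval of 12.4 to 183, and that interval, like those below, covers counting error only and not the spread between mice. The ratio was 34.4 (11.4 to 169) to KN046 and 63.2 (17.1 to 528) to SB525334.

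Nkx2-5, known from heart as well as spleen, encodes the NK2 homeodomain factor that acts beside Tlx1 in the primordium. Its counts were 11, 11, 13 and 31 in the combination mice, 0 in all 4 control mice and all 4 KN046 mice, and 0, 2, 0 and 2 in the SB525334 mice. The combination level was 0.836 ± 0.421 CPM, and mouse 4, at 1.46 CPM, was 2.59 times the lowest. A count of 0 over a group allows up to 3 counts, which is 0.0362 CPM in the control group and 0.0392 CPM in the KN046 group. Against those limits Nkx2-5 was at least 23.6-fold higher than in control and at least 21.8-fold higher than with KN046. The ratio to SB525334, with its 4 counts, was 20.0 (7.47 to 75.7).

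Nkx2-3 encodes the NK2 factor of gut and splenic vessels. Its counts in the combination mice were 30, 29, 33 and 53, or 1.86 ± 0.440 CPM. Outside that group it was counted only in control mouse 1, with 6 counts, and the other 11 mice had 0. The ratio of combination to control was 26.0 (11.6 to 71.9), and without control mouse 1 the control group was at 0 and the difference was at least 5.23 on the log2 scale. The level was at least 47.9-fold higher than with KN046 and at least 58.7-fold higher than with SB525334.

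Nr5a1 encodes an orphan nuclear receptor of steroid-making cells and of the splenic vascular bed. Its counts were 51, 46, 28 and 64 in the combination mice, 3, 0, 0 and 0 in the control mice, 0, 0, 1 and 0 with SB525334 and 0, 0, 1 and 0 with KN046. The combination level was 2.43 ± 0.634 CPM, and mouse 3 was the lowest at 1.53 CPM. The ratio to control was 67.7 (22.8 to 331). The ratios to KN046 and SB525334, 187 (33.2 to 7440) and 230 (40.7 to 9115), rest on a single count in each of those groups.

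Coch encodes cochlin, a secreted matrix protein of the inner ear that is also made by stromal cells in the follicles of spleen and lymph node. Its counts in the combination mice were 162, 16, 17 and 127. The control mice had 0, 2, 2 and 0, the SB525334 mice 1, 1, 2 and 2, and the KN046 mice 3, 7, 0 and 1. All combination mice were above all others, but they fell into a high pair, mice 1 and 4 at 8.32 and 5.99 CPM, and a low pair, mice 2 and 3 at 0.883 and 0.928 CPM. The mean of 4.03 ± 3.73 CPM therefore describes no single mouse, and the highest was 9.42 times the lowest. The ratio to control was 86.5 (33.4 to 319), to KN046 29.0 (16.004 to 58.7) and to SB525334 65.2 (29.6 to 179). On the log2 scale the ratio to KN046 was 4.86, and 5.87 without KN046 mouse 2. Without combination mouse 1 the ratios were 5.85 to control, 4.27 to KN046 and 5.44 to SB525334.

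Madcam1 encodes the vascular addressin that binds the integrin α4β7 on lymphocytes and lines sinuses of the splenic marginal zone. It had too few counts to pass the filter on low counts, as the only one of the 6 genes. The combination mice had counts of 7, 1, 1 and 20, the control mice 2, 0, 0 and 0, the SB525334 mice 2, 1, 2 and 2, and the KN046 mice 0, 2, 0 and 0. Only combination mice 1 and 4 were above the other groups, and mice 2 and 3 overlapped with them. The combination level was 0.353 ± 0.419 CPM, and the ratio was 15.6 (3.94 to 135) to control, 14.4 (3.64 to 124) to KN046 and 5.03 (2.16 to 13.6) to SB525334. Without combination mouse 4 the difference from SB525334 was 1.11 on the log2 scale, against 2.33 with it.

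Neither agent alone gave a level of these genes that stood clear of the control mice. Coch totalled 11 counts with KN046 (7 of them in mouse 2), 6 with SB525334 and 4 in control. The ratios to control were 2.98 (0.883 to 12.8) with KN046 and 1.33 (0.315 to 6.39) with SB525334. These intervals cover counting error only, so they do not test a difference between groups of mice. Madcam1 totalled 7 counts with SB525334 and 2 in control, a ratio of 3.09 (0.589 to 30.5). At this depth a smaller difference between the 3 groups was not detectable for any of the 6 genes. Control mouse 1 held every count of Tlx1, Nkx2-3, Nr5a1 and Madcam1 found in the control group, 14 in all, while its near match, control mouse 2, held none.

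Divided by transcript length, which allows the genes to be set beside one another, the combination levels were 1.17 ± 1.08 CPM per kb for Coch, 0.881 ± 0.208 for Nkx2-3, 0.643 ± 0.0728 for Tlx1, 0.572 ± 0.149 for Nr5a1, 0.539 ± 0.272 for Nkx2-5 and 0.218 ± 0.258 for Madcam1. The ranges of the 4 mice overlapped between each gene and the next in this order. Within the mice, which give both values, Nkx2-3 was above Tlx1 in 4 of 4 mice with a mean gap of 0.238 CPM per kb, and Nkx2-5 was above Madcam1 in 4 of 4 with a mean gap of 0.321, both larger than the larger SD of the pair. The gaps between the other neighbours were smaller than that SD.

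The spread among the 4 combination mice set the factors apart from Coch and Madcam1. The coefficient of variation was 11.3% for Tlx1, 23.6% for Nkx2-3, 26.1% for Nr5a1 and 50.4% for Nkx2-5, against 92.6% for Coch and 119% for Madcam1. For Tlx1, mice 2 and 3 had 0.988 and 0.895 of the mean of the 4 mice. For the other factors they had from 0.6301 (Nr5a1, mouse 3) to 1.046 (Nr5a1, mouse 2) of it. For Coch they had 0.219 and 0.230 of the mean, and for Madcam1 0.156 and 0.155. The summed level of 9 B cell genes split the combination mice in the same way, at 28.1, 4.64, 4.20 and 73.6 CPM in mice 1 to 4. In the other groups that sum was 5.83 to 11.3 CPM in control, 2.19 to 6.24 CPM with SB525334 and 5.25 to 19.6 CPM with KN046. In mice 2 and 3 the B cell sum was below the control range. Their levels were 1.32 and 1.20 CPM for Tlx1 and 0.607 and 0.710 CPM for Nkx2-5. They were 1.60 and 1.80 CPM for Nkx2-3 and 2.54 and 1.53 CPM for Nr5a1. Mouse 1 had 1.28, 0.565, 1.54 and 2.62 CPM of these factors in the same order. Mouse 4, with the highest B cell sum, also had the highest level of each factor, at 1.555, 1.461, 2.498 and 3.017 CPM. The part of B cell or other lymphoid RNA in the levels of the factors, Coch and Madcam1 was not tested.

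**Figure D2:**
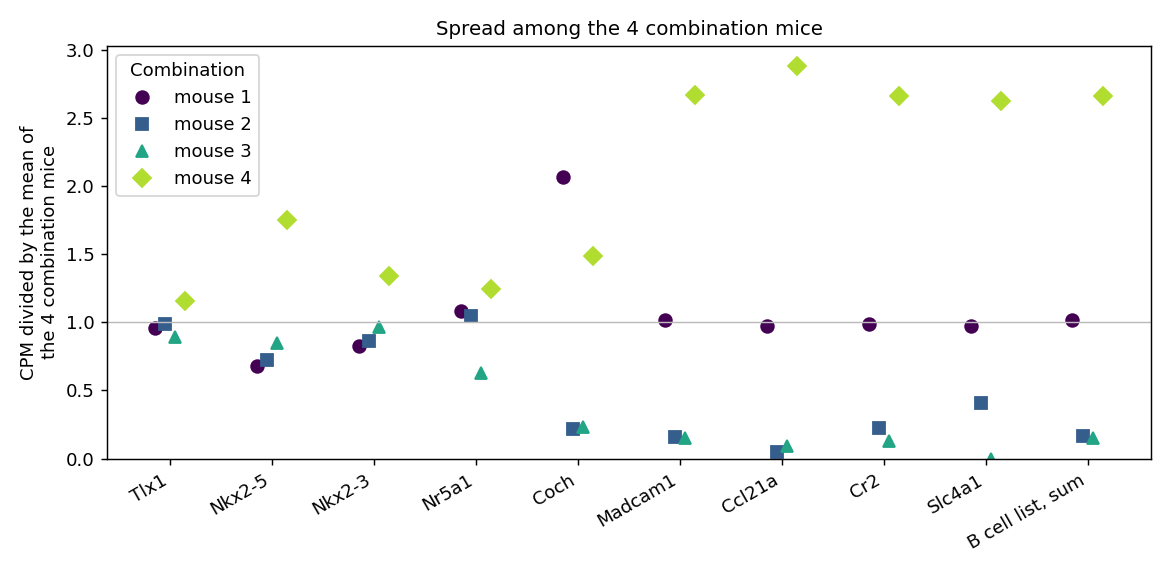
Level of each gene, and of the summed B cell list, in the 4 combination mice divided by the mean of those mice (y axis, linear, from 0), with a symbol for each mouse. Mice 2 and 3 are near 1 for Tlx1 (0.988 and 0.895) and at 0.6301 to 1.046 for the other factors. They are below 0.25 for Coch, Madcam1, Ccl21a, Cr2 and the B cell list. For Slc4a1 mouse 2 is at 0.408 and mouse 3 at 0. Mouse 4 is at 2.66 for the B cell list and is the highest for each factor, from 1.16 (Tlx1) to 1.749 (Nkx2-5). Cr2 was added to the plot after its values were seen.

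Over the 16 mice the levels of the factors followed one another closely, as a gene on in 4 mice and off in 12 must. Pearson's r of log2(CPM + 1) was 0.991 between Tlx1 and Nr5a1 and between Tlx1 and Nkx2-3, 0.981 between Nkx2-3 and Nr5a1, and 0.943 to 0.964 between Nkx2-5 and the other 3. It was 0.835 to 0.876 between Coch and the factors, 0.839 between Coch and Madcam1 and 0.659 to 0.794 between Madcam1 and the factors. These values rest on the 4 combination mice, which form a cluster of their own, and the genes share each library.

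The genes most like the factors by this measure were the same few. Slc29a4, a plasma membrane transporter of monoamines, was nearest to Tlx1, Nkx2-3 and Nr5a1 (r = 0.961, 0.959 and 0.953) and among the nearest 3 for Nkx2-5 (r = 0.917). It had 15, 11, 15 and 15 counts in the combination mice and 0 to 3 in each other mouse. Nts, the gene of neurotensin, was second for Tlx1 (r = 0.952) and Nr5a1 (r = 0.941), with 13.6 ± 3.18 CPM in the combination and 1.36 ± 0.807 CPM in control. Cdh15, which encodes M-cadherin, was nearest to Nkx2-5 (r = 0.931), second for Nkx2-3 (r = 0.940) and among the nearest 3 for Nr5a1 (r = 0.917), at 4.84 ± 1.78 CPM in the combination and 1.06 ± 0.493 CPM in control. The remaining genes among the nearest 3 were Olfml2a for Tlx1 (r = 0.925), the stromelysin gene Mmp3 for Nkx2-5 (r = 0.926) and Lrrn1 for Nkx2-3 (r = 0.929).

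Nearest to Coch were Slc4a1, the anion exchanger of red cells (r = 0.873), and the phospholipase gene Pla2g2d (r = 0.8501). Ms4a1, which encodes the B cell protein CD20, followed (r = 0.845). Slc29a4, also near the factors, was at rank 4 for Coch (r = 0.836), close behind Ms4a1. Between Coch and Nr5a1 r was 0.876, above the value for each of these neighbours. The list of neighbours therefore does not set Coch apart from the factors. Ms4a1 had 63, 8, 1 and 229 counts in combination mice 1 to 4, and Pla2g2d had 47, 13, 17 and 176. For Madcam1, which lies outside the naming rule since it did not pass the filter and whose neighbours were taken after values were seen, the nearest were Cr2 (r = 0.932), Ms4a1 (r = 0.928) and Cxcr5 (r = 0.924), the receptor for complement fragments, CD20 and the follicle-homing receptor of B cells.

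Few of the 21959 genes of the whole table shared the on and off pattern. With limits set after the counts were seen, 10 or more counts in each combination mouse and 7 or fewer in each other mouse, 7 genes qualified: Tlx1, Nkx2-5, Nkx2-3, Nr5a1, Coch, Slc29a4 and Lrrn1. The reverse pattern, 10 or more in each of the other 12 mice and 7 or fewer in each combination mouse, held for 135 genes. The limits lie close to the extremes of the described genes, and 7 is the highest count of Coch outside the combination. Since those genes were chosen with this contrast in view, nothing is read from their place among the 7.

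Among the other genes of spleen formation, Nkx3-2 alone was counted in the combination mice and in none of the others. In the edgeR quasi-likelihood test over all 16 mice, with Benjamini-Hochberg adjustment over 13968 genes, 1.37% of genes were higher and 9.74% lower in the combination than in control, and the median log2 difference of all genes was 0.013. Of 8 spleen organogenesis factors 6 were tested, 0 were higher and 1 was lower, with a median of -0.44. Wt1, needed for spleen and kidney, was 0.508 ± 0.308 against 0.964 ± 0.255 CPM (adjusted p = 0.402). The gene called lower was Hand2, a factor of lateral mesoderm that hepatic stellate cells also use, at 0.0658 ± 0.0782 against 1.81 ± 0.441 CPM (log2 difference -4.68, SE 0.62, adjusted p = 1.65e-05). Nkx3-2, an NK3 factor of the splenic and pancreatic mesenchyme that was chosen for mention after its values were seen, had 10, 2, 8 and 16 counts in the combination mice and 0 in the other 12, too few to be tested.

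The paralogs of the factors gave little signal. Of 9 genes, 5 had 0 counts in every mouse, Nkx2-1 and Nkx2-2 among them, and 7 had 0 in every combination mouse. The only one tested was Nr5a2, the liver receptor that is the closest relative of Nr5a1. In the combination it moved opposite to Nr5a1, with counts of 102 to 188 in the control mice and 0 to 2 in the combination mice (log2 difference -7.66, SE 0.68, adjusted p = 1.13e-07). Nr5a2 was also lower with SB525334 alone, at 0.732 ± 0.268 against 6.45 ± 1.30 CPM (log2 difference -3.13, adjusted p = 5.02e-05). Nr5a1 was not raised there, with 1 count in all against 3 in control.

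Genes of the white pulp, the lymphoid part of the spleen, did not move as a group. Of 14 genes of reticular and follicular dendritic cells 13 were tested, 0 were higher and 2 lower in the combination than in control, with a median of 0.40. Ccl21a, the T zone chemokine, had counts of 2 to 139 in the combination mice (2.27 ± 3.01 CPM) and 0.672 ± 0.573 CPM in control (log2 difference 1.74, SE 0.93, adjusted p = 0.287), and Ccl19 was 0.521 ± 0.439 against 0.307 ± 0.157 CPM and was not tested. Clu fell (log2 difference -2.48, SE 0.28, adjusted p = 2.83e-06), a gene that hepatocytes also make in quantity. Cxcl13, the follicle chemokine, was lower than in control (log2 difference -2.80, SE 0.75, adjusted p = 0.0182) and higher than with SB525334 (log2 difference 4.56, adjusted p = 0.0391), and the call against control was lost when the similar control mice were averaged (adjusted p = 0.0861) and when only the 8 mice compared were fitted. The call against SB525334 was lost in 5 of 8 fits lacking a single mouse, with a log2 difference of 2.12 and an adjusted p of 0.586 without combination mouse 4, and under the replicate block (adjusted p = 0.116). Its adjusted p over all alternatives was 0.0063 to 0.586.

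The lymphotoxin and alternative NF-kB pathway, through which lymphocytes instruct splenic stroma and its MAdCAM-1, differed little from control. Of 11 genes 10 were tested, 1 was higher and 0 lower, with a median of 0.11. That gene was Relb, the NF-kB subunit of the alternative pathway, at 45.8 ± 3.43 against 35.2 ± 3.36 CPM (log2 difference 0.38, SE 0.11, adjusted p = 0.0285). The call was lost in 4 of 8 fits lacking a single mouse, where it reached an adjusted p of 0.108. It was also lost with averaged control pairs (adjusted p = 0.155). Against KN046, where 9.89% of all genes were higher and 14.5% lower, 4 of the 10 were higher, namely Ltb, Map3k14, Relb and Nfkb2. Map3k14 was close to the threshold (adjusted p = 0.0498). The count was 3 to 5 with a mouse left out and 2 to 5 in the other settings. The ligand gene Ltb was 7.64 ± 5.96 CPM in the combination and 1.47 ± 0.986 CPM with KN046 (log2 difference 2.37, SE 0.49, adjusted p = 0.00200). Against SB525334, where 0.544% of genes were higher and 3.03% lower, 0 of the 10 passed.

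The partners of MAdCAM-1 on lymphocytes were not called. Of 6 genes 4 were tested, and 0 passed in either direction in the combination against control (median -0.44). Itga4 and Itgb7, the chains of its integrin receptor, had log2 differences of -0.79 (SE 0.36, adjusted p = 0.203) and 0.25 (SE 0.19, adjusted p = 0.470).

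Part of the genes of retinoic acid metabolism, a signal that Tlx1 is known to hold back in the spleen primordium, were lower. All 13 were tested, 0 were higher and 6 lower than in control, with a median of -0.67, and the summed level of the list, 761 to 858 CPM in the combination mice, lay within the 721 to 1002 CPM of the control mice. Aldh1a1, a retinaldehyde dehydrogenase, fell from 72.0 ± 2.90 to 0.311 ± 0.265 CPM (log2 difference -7.78, SE 0.50, adjusted p = 2.43e-09), and Aldh1a2 fell from 3.08 ± 1.35 to 0.314 ± 0.216 CPM (log2 difference -3.24, SE 0.49, adjusted p = 8.62e-05). Cyp26a1, which degrades retinoic acid, Rarb, a receptor, and Dhrs3, which reduces retinal, fell by 4.29, 2.82 and 1.20 on the log2 scale. Aldh1a3 was also called (adjusted p = 0.0373), a call lost in 5 of 8 fits lacking a single mouse, where it reached an adjusted p of 0.119. It was lost too with no filter, with only the mice compared, under the replicate block and with averaged control pairs (adjusted p = 0.123 in the last). With SB525334 alone, where 9.22% of all genes were lower than in control, 2 of the 13 were lower. They were Aldh1a1 (log2 difference -3.95, adjusted p = 1.03e-06) and Cyp26a1 (log2 difference -4.09, adjusted p = 0.000107). Cyp26a1 was also lower with KN046 (adjusted p = 0.0151, and 0.181 with averaged control pairs). Against SB525334 the combination was lower in Aldh1a1 and Aldh1a2 and not called in Cyp26a1 (log2 difference -0.20, adjusted p = 0.983). Liver cells hold and use retinoids too, and the hepatocyte genes moved in the same direction over the same mice.

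Markers of red pulp and marginal zone macrophages moved in both directions across the comparisons. Of 10 genes 9 were tested, 0 were higher and 4 lower than in control, with a median of -0.79. Spic, the factor of red pulp macrophages, was 1.26 ± 1.10 against 2.21 ± 0.511 CPM (adjusted p = 0.524) and Siglec1 12.7 ± 3.16 against 22.0 ± 8.44 CPM (adjusted p = 0.286). Marco fell by 4.30 on the log2 scale (SE 0.56, adjusted p = 1.52e-05), and Cd163, Slc40a1 and Treml4 were the other calls. Treml4 lost its call with averaged control pairs (adjusted p = 0.0585). With SB525334 alone, where 9.22% of all genes were lower than in control, 5 of the 9 were lower, the same 4 and Spic. The log2 differences were -4.005 for Marco, -2.91 for Cd163, -2.96 for Slc40a1 and -1.865 for Treml4. With averaged control pairs the Treml4 and Spic calls there were lost (adjusted p = 0.109 and 0.0666). Both were also lost in some fits lacking a single mouse, with an adjusted p up to 0.0783 and 0.0557. The number of lower calls was 3 to 5 with a mouse left out and 3 to 6 in the other settings. Between the combination and SB525334 none of the 4 was called (adjusted p = 0.835 to 0.998). Among calls in the other comparisons, the integrin gene Itgad was higher than with KN046 (log2 difference 3.30, adjusted p = 0.0285), with 11 to 23 counts in the combination mice, beside 4 genes that were lower, and Hmox1, which degrades heme, was higher than with SB525334 (log2 difference 1.29, adjusted p = 0.0103). Itgad had 6 counts in all with KN046. Over all genes 9.89% were higher and 14.5% lower than with KN046, and 0.544% higher and 3.03% lower than with SB525334. The number of higher calls in the list was 0 to 1 with a mouse left out in both comparisons. In the other settings it was 1 to 2 against KN046 and 0 to 1 against SB525334. Kupffer cells of the liver share several genes of the list.

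B cell and red cell genes were high in part of the combination mice. Of 11 B cell genes 9 were in the table and tested, 2 were higher and 0 lower than in control, with a median of 2.33. Over all genes 1.37% were higher and 9.74% lower. The calls were Cd79a (log2 difference 2.82, SE 0.85, adjusted p = 0.0373) and Cd79b (log2 difference 2.59, SE 0.75, adjusted p = 0.0297), the signalling chains of the B cell receptor. Both were lost in 5 of 8 fits lacking a single mouse, and the adjusted p reached 0.283 and 0.244 without combination mouse 4. Both were also lost with only the mice compared, under the replicate block and with averaged control pairs (adjusted p = 0.23 and 0.213 in the last). Against SB525334, where 0.544% of genes were higher and 3.03% lower, 4 of the 9 were higher. That count was 1 to 6 with a mouse left out and 0 to 6 in the other settings. Without combination mouse 4 the adjusted p in that comparison was 0.148 for Cd79a and 0.421 for Cd79b. Of 10 erythroid genes 9 were in the table and 6 tested, and 1 was higher, Slc4a1, with counts of 64, 25, 0 and 188 in the combination mice (log2 difference 3.42, adjusted p = 0.0325). It was lost in 5 of 8 fits lacking a single mouse, where it reached an adjusted p of 0.177. It was also lost with DESeq2, with only the mice compared, under the replicate block and with averaged control pairs (adjusted p = 0.234 in the last). The summed erythroid level was 63.3, 212, 15.6 and 265 CPM in combination mice 1 to 4 and 83.4 to 161 CPM in control. It was 8.96 to 52.9 CPM with SB525334 and 64.6 to 323 CPM with KN046, where mouse 3 was above every combination mouse.

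In the combination mice, where the factors were high, the hepatocyte genes were lower than in each other group. All 14 hepatocyte genes were lower in the combination than in control (median -9.79), than with KN046 (median -9.74) and than with SB525334 (median -6.34). Over all genes 9.74%, 14.5% and 3.03% were lower in these comparisons. Alb was 9.52 ± 1.88 CPM in the combination, 8185 ± 268 CPM in control and 535 ± 314 CPM with SB525334 (log2 difference from control -9.75, SE 0.53, adjusted p = 4.72e-10). Hnf4a, a defining factor of hepatocytes, had 2 counts in 1 combination mouse, 0 in the other 3, and at least 1505 in each control mouse. In SB525334 mice, where 0.394% of all genes were higher and 9.22% lower than in control, all 14 were lower as well (median -3.57) and the factors were not raised, at 0 to 0.129 CPM in sum. With KN046, where 1.60% of genes were higher and 2.40% lower, 0 of the 14 passed (median -0.17). Of 10 hepatic stellate cell genes, 6 were lower in the combination than in control (median -2.99). The summed level of that list was not lower, at 947 to 980 CPM in the combination mice and 865 to 958 CPM in the control mice. Lhx2, a stellate cell factor, had 0 counts in all 4 combination mice and 17 to 33 in the control mice, and Lrat, which stores retinol as esters in these cells, fell from 2.35 ± 0.406 to 0.0372 ± 0.0459 CPM. The part of tissue composition in the levels of the 6 genes was not tested. SB525334 and combination mice were set against the same control mice.

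**Figure D3:**
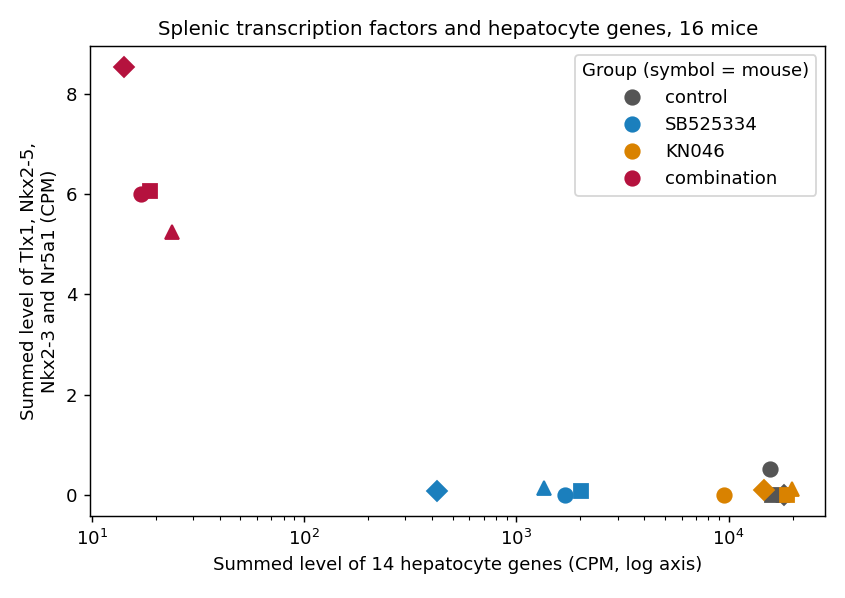
Summed level of Tlx1, Nkx2-5, Nkx2-3 and Nr5a1 (y axis, CPM, linear) against the summed level of 14 hepatocyte genes (x axis, CPM, log axis) in the 16 mice, with a colour for each group and a symbol for each mouse. The 4 combination mice lie at 14.1 to 23.7 CPM of hepatocyte genes and 5.24 to 8.53 CPM of the factors, and the other 12 mice lie at 421 CPM or more and at most 0.525 CPM.

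Few marker genes of other organs in which these factors act had the counts to be tested, and none of those tested was called higher than in control. Nkx2-5 is known from heart muscle, and of 7 heart genes 1 was tested, Tnnt2, at 277 ± 61.5 against 209 ± 8.39 CPM (adjusted p = 0.294), while Myh6 had 0 counts in every combination mouse. The summed level of the 7 heart genes was 230 to 364 CPM in the combination mice, 201 to 217 CPM in control, 213 to 283 CPM with SB525334 and 159 to 412 CPM with KN046. Nr5a1 is known from the adrenal gland and gonads, and of 8 steroidogenic genes 2 were tested: Star was 6.30 ± 1.41 against 5.32 ± 1.35 CPM (adjusted p = 0.599) and Cyp17a1 was lower (log2 difference -5.07, SE 1.11, adjusted p = 0.00365). Cyp11a1, which starts steroid synthesis, was 0.264 ± 0.151 CPM in the combination and 0.115 ± 0.1004 CPM in control and was not tested. Of 8 pancreas genes 1 was tested, Cela1 (adjusted p = 0.137), and the acinar gene Cpa1 had 1 count in all combination mice together. Of 7 mesothelial genes 6 were tested and 1 was lower, Gpm6a (adjusted p = 0.0182, lost in 4 of 8 fits lacking a single mouse, where it reached an adjusted p of 0.0648), while Msln was 158 ± 25.4 against 139 ± 9.63 CPM (adjusted p = 0.643). The Gpm6a call was also lost with averaged control pairs (adjusted p = 0.0596).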

How the data were processed

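RNA of 16 mice in 4 treatment groups of 4 was analysed, with groups taken from the labels. The authors trimmed reads with cutadapt 2.7, aligned them with HISAT2 2.2.1 to GRCm39 and deposited raw counts per gene from HTSeq 2.0.4, per the submitters' processing notes. Settings for strand and for reads with several alignments are not given in the sources used here. The authors also deposited counts normalized with DESeq2 1.38.3, which were not used here. Gene symbols, positions and promoters came from GENCODE M39 and the GRCm39 genome.

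Tests on the counts used edgeR 4.0.16 (R 4.3.3). Genes were kept by filterByExpr at a minimum count of 10, libraries were scaled by TMM, and a single quasi-likelihood fit held all 16 mice in 4 groups, with a Benjamini-Hochberg threshold of 0.05. The test was checked on simulated data. The 6 genes and the gene lists were chosen with earlier results of these data known, so the 6 genes were not tested. Ratios of pooled counts carry 95% exact counting intervals, and a group at 0 was set to 3 counts. Named genes were the 6 genes, the first 2 genes of each list with up to 4 more called in the combination against control by size of change, and the 3 genes most correlated with each of the 6 that passed the filter. A few genes named outside that rule are marked as such, or are given as the calls of a list. Labels name the samples of a group but not separate litters, so p-values measure the spread between these mice. Alternatives were DESeq2 1.42.0, other scalings, no filter, only the mice compared, a replicate block, averaged control pairs and each mouse left out. Promoters were searched for 4 patterns, of which the NF-kB type, with no match in the 6 promoters, is given by name only. Some list genes that the rule names are not reported here. Ighm, Ighd and Ahsp were not analysed here.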

Additional observations from a re-analysis of the deposited data

Results flagged for a closer look

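Among 213 groups of 4 mice, the 6 genes and the genes named by list, 24 had a highest or lowest mouse whose gap to the next was large for the range of the group, where chance would give about 10.65 (1 in 20). Groups made of a single count or of zeros meet this limit easily. On the 6 genes there were 10. Control mouse 1 was the only control mouse with counts of Tlx1 (0.131 CPM), Nkx2-3 (0.262 CPM), Nr5a1 (0.131 CPM) and Madcam1 (0.0875 CPM). SB525334 mouse 3 alone in its group had Tlx1 (0.0861 CPM) and Nr5a1 (0.0430 CPM), KN046 mouse 3 alone had Nr5a1 (0.0559 CPM), and KN046 mouse 2 alone had Madcam1 (0.0972 CPM). Madcam1 was lowest in SB525334 mouse 2 (0.0398 CPM). Nkx2-5 was highest in combination mouse 4, at 1.46 CPM against 0.565 to 0.710 CPM in the other 3.

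In combination mouse 4, Cxcl13 (3.02 CPM), Aldh1a1 (0.707 CPM), Reln (0.518 CPM) and Cyp17a1 (0.141 CPM) were also above the rest of the group. In combination mouse 3, Nr5a2 and Hnf4a were each at 0.109 CPM and at 0 in the other 3 mice, and Cpa1 was at 0.0513 CPM in combination mouse 1 alone. With SB525334, Cxcl13 was lowest in mouse 4 (0 CPM), Slc40a1 was lowest in mouse 4 (4.61 CPM) and Slc4a1 was highest in mouse 3 (0.215 CPM). With KN046, Lta was highest in mouse 1 (1.23 CPM), Siglec1 in mouse 2 (73.4 CPM), Myh6 in mouse 2 (0.0486 CPM) and Alas2 in mouse 3 (15.3 CPM).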

How the results depend on the processing

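The levels of the 6 genes in the combination stayed above each other group under both other scalings, with averaged control pairs and with each mouse left out. Leaving out a mouse gave log2 ratios of 4.99 to 6.03 for Tlx1, 5.43 to 5.96 for Nkx2-3, 5.85 to 8.003 for Nr5a1 and 3.87 to 4.91 for Nkx2-5 against SB525334, and of 4.65 to 6.27 for Tlx1, 5.13 to 5.67 for Nkx2-3 and 5.58 to 7.71 for Nr5a1 against KN046. The groups compared against here hold 0 to 4 counts in all, and a group at 0 is set to 3 counts over fewer mice. The widest moves were in Nr5a1, which rests on 1 count in KN046 mouse 3 and 1 in SB525334 mouse 3. Against control, Coch ranged from 5.85 to 7.04 and Madcam1 from 2.74, without combination mouse 4, to 4.30, and against KN046 Coch ranged from 4.27 to 5.87. With control pairs averaged the lower bound for Nkx2-5 against control was 3.56 on the log2 scale against 4.56, by construction, since the limit then covers fewer libraries.

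The number of genes called moved by more than 1.5 times in a few settings. KN046 against control gave 559 genes, 1250 with DESeq2, 75 with only the mice compared, and 0 with averaged control pairs, where 1796 genes had an unadjusted p under 0.05 in edgeR. Leaving out a mouse gave 21 to 2096 in that comparison, and every omission but that of KN046 mouse 4 moved it by over 1.5 times. With only the mice compared, the combination against KN046 gave 1855 genes in place of 3406, and against SB525334 294 in place of 499. Same-numbered mice did not deviate together (7 of 24 correlations over 0.1), so the numbers were not taken as pairs, and the replicate block gave 1350, 579, 1532, 3644 and 474 genes for SB525334, KN046 and the combination against control and for the combination against KN046 and SB525334, against 1343, 559, 1552, 3406 and 499 without it. Of 3187 values of the named list genes, 115 lost and 33 gained a call and 0 reversed. The 14 hepatocyte and 6 stellate calls against control held in all settings, whereas the B cell calls numbered 0 to 4. The low counts of the 6 genes limit what can be said outside the combination group.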
